A study of Rattus norvegicus with 4 samples.

Results

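The vascular endothelial markers examined here are 10 rat genes, Pecam1, Vwf, Erg, Egfl7, S1pr1, Nostrin, Ece1, Cd93, Tm4sf1 and Palmd, chosen by their current symbol among the gene probes of a whole-genome rat array. They were represented by 16 of 33849 gene probes, and they are 10 of 12330 genes that could be named. They were followed in the crista ampullaris of the rat, the balance organ's sensory epithelium in the semicircular canals, from which 2 layers were cut by laser on morphology. The hair cell layer is the outer one and includes supporting cell cytoplasm lying between the hair cells, and the supporting cell layer is the one beneath, with the bodies of those cells down to the basal lamina. There were 2 single-colour arrays per layer, hybridised with linearly amplified polyadenylated RNA. The labels state no strain, age, sex, genotype or treatment, and do not say whether arrays 1 and 2 represent different animals; p-values therefore rest on the spread of these samples alone, and that spread may be technical.

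Endothelial cells line blood vessels. They are joined by adhesion molecules, hold von Willebrand factor in storage granules, and keep their identity through transcription factors of the ETS family, while the lipid sphingosine-1-phosphate and the endothelin and nitric oxide systems act on vessel tone and permeability. In the crista the vessels run in the stroma under the basal lamina, and the epithelium itself is without vessels. Whether the markers moved together or divided between the layers was asked for this group.

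The markers divided. All 10 genes passed the test in the fit across all probes (adjusted p under 0.05), as did 65.4% of all 7771 tested genes. Of the 10, 8 were higher in the supporting cell layer, a direction called for 28.2% of tested genes. Without scaling between the arrays 6 of these 8 were called, Pecam1 missing the threshold and Cd93 turning its sign. The other 2, Vwf and Ece1, were higher in the hair cell layer, a direction called for 37.2% of tested genes. By probe, 9 of the 12 tested were called toward the supporting side and 3 toward the hair cell side, where 33.5% and 33.9% of all 16483 tested probes were called, 67.4% in all. Of these 12 probes 5 passed the filter through 1 layer alone. After normalization none of the 10 genes had overlapping layers, and across tested genes 40.3% had both supporting arrays on top and 48.9% both hair cell arrays. Changes are given as log2 differences, positive where the supporting cell layer is brighter. The median change of the 10 genes was 1.18, and that of all tested genes was -0.10. Erg, Egfl7 and S1pr1 were detected only in the supporting cell layer and passed the filter on dim probes through that layer alone, so that their direction was fixed once they were tested. The 7 genes detected on all 4 arrays were divided 5 to 2, again with Vwf and Ece1 on the hair cell side. A fit limited to probes detected on all 4 arrays divided them 5 to 2 as well. Beside this, 2133 of all 5782 genes tested there were called toward the supporting side and 2170 toward the hair cell side. In captured tissue, fewer endothelial cells and less RNA per cell cannot be told apart.

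Raw intensities below are spot brightness after local background subtraction, given in the order hair cell layer arrays 1 and 2, then the same for the supporting cell layer. A flag set by the scanner software says whether a spot lay above background, and the lowest raw intensity flagged as detected was 18.9 to 20.3 on the 4 arrays. Over all gene probes the median raw intensity was 26.5 and 17 in the hair cell layer but 12.1 and 12.0 in the supporting cell layer, so that raw values favour the former. Changes were fitted on quantile-normalized intensities, which bring the 4 arrays to 1 distribution. All spots of the 16 probes were flagged either good or not above background, and none was contaminated, irregular or saturated. Of the 16 probes 12 were tested and 4 were undetected on all 4 arrays. The layers were checked against their own markers. Of 16 tested hair cell markers 13 were called toward their own layer, as were 37.2% of all tested genes, and 0 toward the other. Among the 13, Cdh23, Espn and Lhfpl5 passed the filter through that layer alone, so that their direction was fixed. With the arrays scaled to their medians instead, Barhl1, Chrna10, Gfi1, Lhfpl5 and Otof were no longer called, while Myo7a was. The 15 tested supporting cell markers were divided 6 to 6, beside 28.2% and 37.2% of all tested genes. Of those on the hair cell side, Cldn9 passed the filter through that layer alone, so that its direction was fixed. Sox2 was counted there by its brighter probe (-0.74 ± 0.08). Its other probe, called toward the supporting side, was undetected in the hair cell layer, so that its direction was fixed as well.

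**Figure D1:**
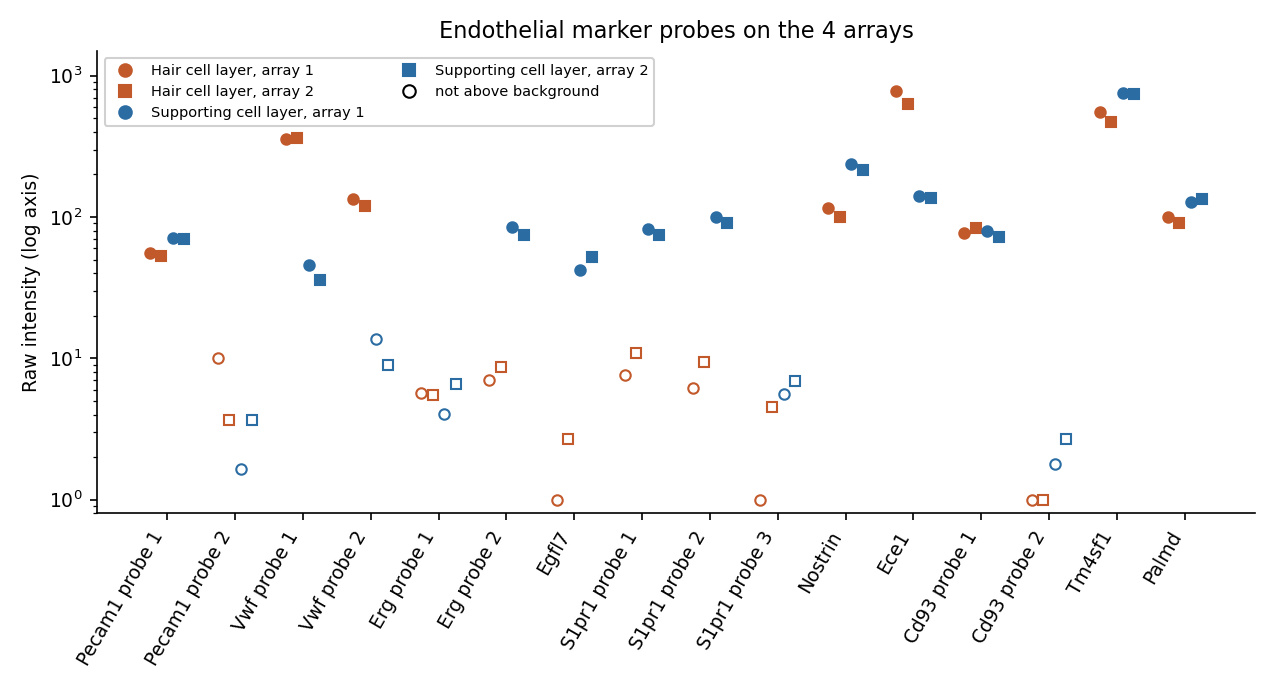
Raw intensity (log axis) of all 16 probes of the 10 endothelial markers on each array, with filled symbols for spots above background and open symbols for the rest; values under 1 are drawn at 1. Vwf and Ece1 sit higher on both hair cell layer arrays, and Erg, Egfl7 and S1pr1 are above background on the supporting cell layer arrays alone.

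The transcription factor Erg, the secreted protein Egfl7 and the sphingosine-1-phosphate receptor S1pr1 were seen in the supporting cell layer alone. Of all tested genes 2.84% were detected on both supporting cell layer arrays and on neither hair cell layer array. Because the hair cell layer gave no detected signal for them, the fold is known only as a lower limit, set by the dimmest signal that counted as detected there. This limit depends on the quantile normalization, after which the lowest detected intensity was 13.9 and 18.5 in the hair cell layer but 26.6 and 28.3 in the other. With a floor at the highest detection limit the changes of Erg, Egfl7 and S1pr1 were 1.86, 1.10 and 2.12. Those are smaller folds than the limits given below.

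Erg is an ETS-family factor that maintains endothelial identity. Its probe for the RefSeq transcript read 7.03, 8.68, 84.4 and 74.4 in raw intensity. Neither hair cell layer array rose above background, and both supporting cell layer arrays did. On the normalized scale the gene was at least 6.41-fold higher in the supporting cell layer (adjusted p = 0.00226 by limma with Benjamini-Hochberg adjustment). The other Erg probe, made to an expressed sequence tag, read 4.03 to 6.57 and was undetected on all 4 arrays, so that it gives no value for the difference.

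Egfl7 encodes an EGF-domain protein that endothelial cells secrete into the matrix around vessels. Its single probe read -2.03, 2.67, 42.2 and 52.5 in raw intensity, which in the hair cell layer is under the medians of the negative control spots, 5.54 and 4.78. On the normalized scale it was at least 3.78-fold higher in the supporting cell layer (adjusted p = 0.00216 by limma). A value below 0 is a spot no brighter than its surroundings.

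S1pr1 is the receptor through which sphingosine-1-phosphate in blood stabilises endothelial junctions. Its brighter probe read 6.20, 9.37, 100.1 and 91.0, and a second probe read 7.68, 10.9, 82.0 and 75 in raw intensity. Both probes were undetected in the hair cell layer and passed the filter through the supporting cell layer alone, so that their shared direction was fixed by the filter. The lower limits of the fold were 7.66 and 6.35 (adjusted p = 0.00362 and 0.00391 by limma). A further probe of S1pr1, made to the RefSeq transcript, read 0.269 to 6.89 and was undetected on all arrays. The call for S1pr1 thus rests on probes made to sequences outside RefSeq.

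The promoters of these 3 genes are shown because they were detected together in 1 layer, with that of Ece1, which went the other way, and that of Tm4sf1, for comparison. The sequences are the 250 bases before the annotated start in RefSeq, build GRCr8, read 5′ to 3′ on the strand of the gene, with matches to GGAAGT or its reverse complement ACTTCC in capitals. GGAAGT is a core that ETS factors such as Erg can bind. The table of promoters held 7 windows for 6 of the 10 genes, 2 of them for Egfl7.
The Erg window lies at chr11:48251567-48251816 on the minus strand, that of Egfl7 at chr3:29805381-29805630 on the plus strand, that of S1pr1 at chr2:206314071-206314320 on the minus strand, that of Tm4sf1 at chr2:143616177-143616426 on the minus strand, and that of Ece1 at chr5:155360781-155361030 on the plus strand.
Erg: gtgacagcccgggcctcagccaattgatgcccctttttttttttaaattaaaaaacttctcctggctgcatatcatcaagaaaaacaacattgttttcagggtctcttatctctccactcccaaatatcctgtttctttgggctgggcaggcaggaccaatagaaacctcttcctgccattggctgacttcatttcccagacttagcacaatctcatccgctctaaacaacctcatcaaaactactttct
Egfl7: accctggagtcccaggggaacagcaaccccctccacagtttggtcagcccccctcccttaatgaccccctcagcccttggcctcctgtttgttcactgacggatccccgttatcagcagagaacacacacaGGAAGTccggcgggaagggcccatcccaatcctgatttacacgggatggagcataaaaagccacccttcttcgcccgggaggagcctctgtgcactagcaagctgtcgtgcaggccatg
S1pr1: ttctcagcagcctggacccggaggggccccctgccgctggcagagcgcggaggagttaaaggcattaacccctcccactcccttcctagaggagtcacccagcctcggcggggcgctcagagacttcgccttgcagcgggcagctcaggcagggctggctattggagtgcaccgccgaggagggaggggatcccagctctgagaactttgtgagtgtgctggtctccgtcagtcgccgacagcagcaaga
Tm4sf1: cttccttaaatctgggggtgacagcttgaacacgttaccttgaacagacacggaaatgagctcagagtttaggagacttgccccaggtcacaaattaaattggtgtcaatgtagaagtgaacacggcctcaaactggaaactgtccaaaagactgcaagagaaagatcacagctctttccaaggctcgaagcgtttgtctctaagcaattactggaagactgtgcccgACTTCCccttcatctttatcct
Ece1: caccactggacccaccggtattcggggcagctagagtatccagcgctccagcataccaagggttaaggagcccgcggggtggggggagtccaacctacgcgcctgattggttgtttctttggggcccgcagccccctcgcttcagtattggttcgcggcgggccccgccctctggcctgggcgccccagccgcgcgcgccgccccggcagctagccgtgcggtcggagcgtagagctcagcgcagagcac
The motif was found in this Egfl7 window, starting 119 bases before the annotated start, and on the other strand in the Tm4sf1 window, 22 bases before it. The windows of Erg, S1pr1, Ece1 and Palmd and the second window of Egfl7 did not hold these letters. Of all 33469 promoters 19.2% held the motif on either strand in the same 250 bases, and of those of tested genes 23.8%. A match is a description of the letters and not a binding site.

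Nostrin, a protein that controls where endothelial nitric oxide synthase sits in the cell, had the largest change among the members detected on all 4 arrays and higher in the supporting cell layer. Its raw intensities were 116, 100.1, 239 and 215. Both supporting cell layer arrays lay above both hair cell layer arrays even before scaling. The change was 1.76 ± 0.07 (SE from limma, 2 arrays per layer; adjusted p = 0.00146), a fold of 3.39.

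Tm4sf1, a tetraspan membrane protein of endothelial cell projections, read 553, 471, 759 and 740.4 in raw intensity. The layers did not overlap, and the change was 1.25 ± 0.07 (adjusted p = 0.00202 by limma), a fold of 2.37. Palmd, a member of the paralemmin family of membrane-associated proteins, read 100.2, 91.0, 128 and 133. Its change was 1.12 ± 0.09 (adjusted p = 0.00332 by limma), a fold of 2.18, again with no overlap.

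Pecam1 encodes the adhesion molecule CD31 of endothelial junctions, also carried by platelets and leukocytes. Its detected probe read 55.3, 52.8, 70.5 and 69.8 in raw intensity, and its change was 1.05 ± 0.11 (adjusted p = 0.00595 by limma), a fold of 2.07. The raw means of the layers differed by 1.30-fold only. Without scaling between the arrays the change was 0.38 and missed the threshold (adjusted p = 0.0531 by limma). In that setting the median over all tested probes moved from 0.01 to -0.67, so that Pecam1 still lay above it. A second Pecam1 probe read 1.66 to 10.1 and was undetected on all arrays. For both Pecam1 probes the accession in the scanner file differed from that in the platform annotation, on which the gene name rests.

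Cd93, a lectin-like receptor of endothelial and myeloid cells, was the least certain. Its raw intensities of 77.2, 83.6, 79.3 and 72.0 overlapped between the layers. After quantile normalization they were 57.8, 74.8, 101 and 94.9 and no longer overlapped. The change of 0.58 ± 0.16 passed the test narrowly (adjusted p = 0.0492 by limma). Without scaling its sign turned, to -0.09 (adjusted p = 0.592 by limma). With median scaling, the scanner software's values, no filter on dim probes or the replicate block it missed the threshold (adjusted p from 0.0862 to 0.205 by limma). It also missed the threshold when hair cell layer array 1 or either supporting cell layer array was left out, with changes of 0.39, 0.53 and 0.63 (adjusted p over all 15 alternatives from 0.0106 to 0.592). The other Cd93 probe was undetected on all arrays.

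**Figure D2:**
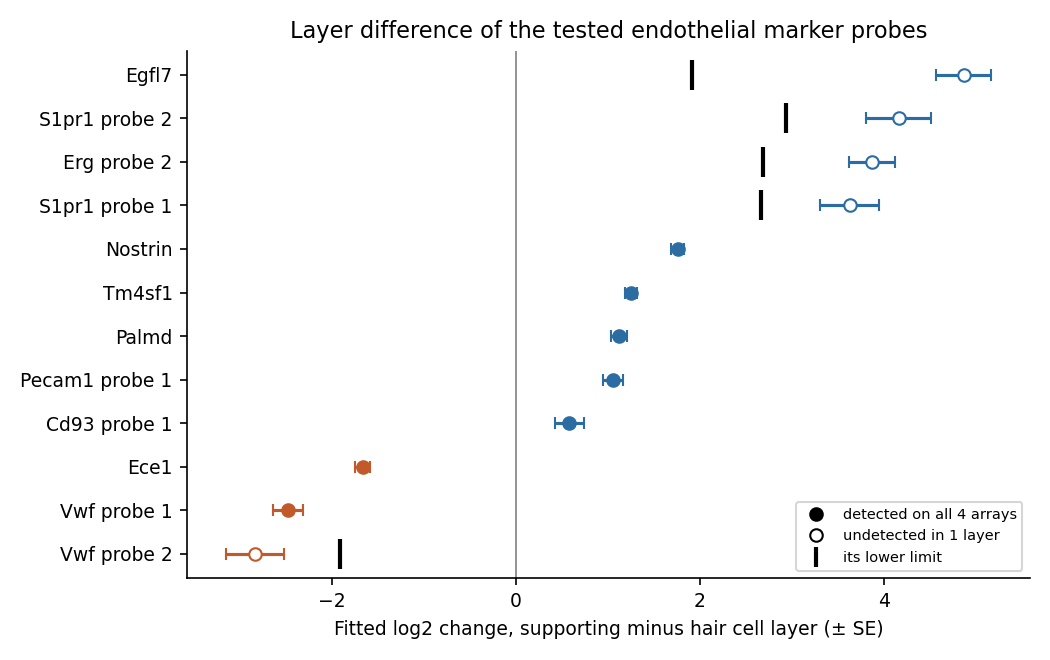
Fitted log2 change of the 12 tested probes, supporting minus hair cell layer, with the standard error from limma as bars. Open symbols are probes undetected in 1 layer, for which the fitted value does not give the size, and the black tick is the lower limit; the Nostrin change of 1.76 is the highest among probes detected on all 4 arrays.

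Vwf went the other way. It encodes von Willebrand factor, a clotting glycoprotein made by endothelial cells and megakaryocytes. Its brighter probe read 359, 364, 45.8 and 36.0 in raw intensity, with all 4 spots above background. The change was -2.48 ± 0.16 (adjusted p = 0.00237 by limma), a fold of 5.59 toward the hair cell layer. A second Vwf probe, to another expressed sequence tag, read 135, 120.0, 13.6 and 9.03, and was above background in the hair cell layer alone. It was at least 3.78-fold higher there (adjusted p = 0.00623 by limma). This second probe passed the filter through the hair cell layer alone, so that its direction was fixed once it was tested, and the call for Vwf rests on the brighter probe. Both were designed to expressed sequence tags, so that the name of each rests on the platform annotation. The probes of Nostrin, Tm4sf1 and Palmd and both detected probes of S1pr1 were also made to sequences outside RefSeq. Their names rest on that annotation as well.

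Ece1, the membrane protease that turns big endothelin into endothelin, is made by endothelium and by many other cells. It read 781, 634, 140.4 and 136 in raw intensity. All 4 spots were above background, and the change was -1.67 ± 0.08 (adjusted p = 0.00167 by limma), a fold of 3.18 toward the hair cell layer. Its probe was made to the RefSeq transcript.

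**Figure D3:**
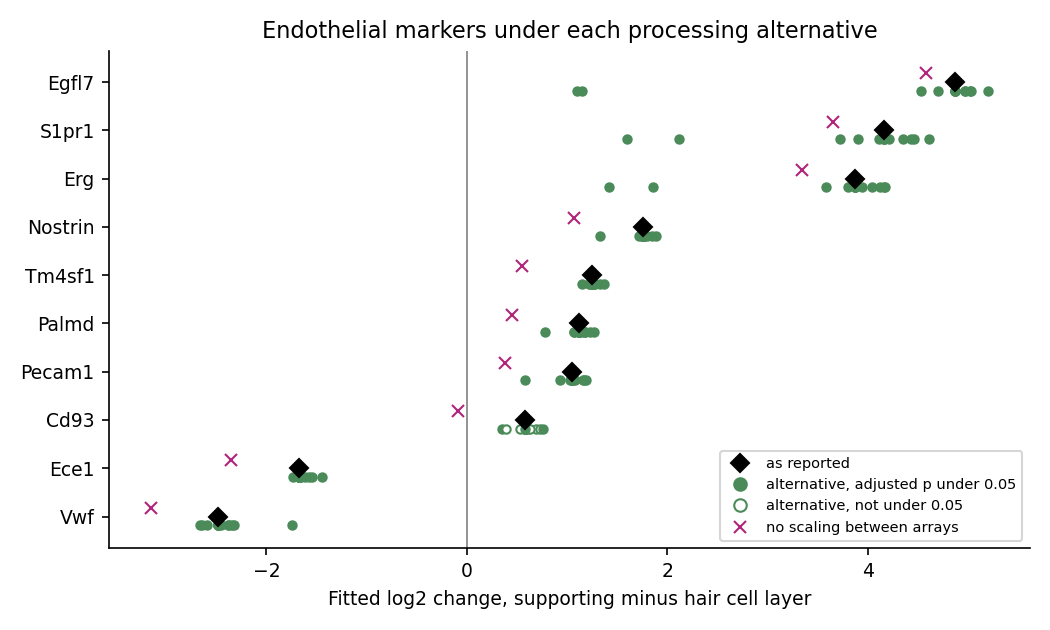
Log2 change of each endothelial marker as reported (diamonds) and under each processing alternative (circles, open where the adjusted p is not under 0.05), with the run without scaling between arrays as crosses. Of the 10 genes Cd93 alone crosses 0, at -0.09 without scaling, and Vwf and Ece1 stay between -3.15 and -1.44 in every run.

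Other genes of the endothelium were divided as well. A list of 85 further endothelial genes had named probes for 70, and 44 of these were tested. Of the 44, 19 were called toward the supporting side, 8 toward the hair cell side and 17 in neither direction, beside 28.2% and 37.2% of all tested genes. The 33 that were detected on all 4 arrays gave 15 and 6 calls. The fit limited to probes detected on all 4 arrays gave 18 and 6, beside 2133 and 2170 of all 5782 genes. The median change of the list was 0.38. Of its called genes 70.4% were on the supporting side, where all called genes had 43.2%. These shares were 82.4% and 42.2% with median scaling, and 81.2% and 39.7% with the scanner software's own values. Without any scaling they were 38.5% and 13.4%, when 10 genes of the list were called on the supporting side and 16 on the other. With 1 array left out, the median change of the list was between 0.33 and 0.51, and that of all tested genes between -0.12 and -0.09.

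Of the endothelial receptor tyrosine kinases, the angiopoietin pathway receptor Tie1 read 47.3, 42.0, 326 and 307 in raw intensity and changed by 3.54 ± 0.09 (adjusted p = 0.00115 by limma). Its partner Tek read 40.2, 44.1, 235 and 236 and changed by 3.22 ± 0.22 (adjusted p = 0.00246). Both were several times brighter in the supporting cell layer, with no overlap. The VEGF receptor Flt1 differed by 0.35 ± 0.14, short of the threshold (adjusted p = 0.108 by limma), and all 3 probes of the other VEGF receptor, Kdr, were undetected on all 4 arrays.

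The junction molecule Esam read 4.43, 2.23, 44.8 and 56.2, and the surface sialomucin Emcn read 9.73, 8.65, 54.3 and 53.8 in raw intensity. Like Erg, Egfl7 and S1pr1, both were undetected in the hair cell layer, and they were at least 4.05-fold and 4.35-fold higher in the supporting cell layer (adjusted p = 0.00243 and 0.00117 by limma). They passed the filter through the supporting cell layer alone, so that their direction was fixed once they were tested. The tight junction gene Cldn5 changed by 1.84 ± 0.10 on 1 supporting cell layer array, since the other gave no value for that spot and was left out of its fit. The efflux pump Abcb1a changed by 3.35 ± 0.09, and Kank3, of the ankyrin-repeat KANK family, by 5.08 ± 0.08. Kank3 read 43.6, 37.4, 845 and 814 in raw intensity, above background on every array.

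On the hair cell side, F11r, a junctional adhesion molecule that epithelia carry as well, read 1039, 921, 183 and 196 and changed by -1.66 ± 0.10 (adjusted p = 0.00199 by limma). Dll4, a Notch ligand of arterial endothelium and sprouting vessels, read 42.8, 33.6, 6.5 and 0.269, was undetected in the supporting cell layer and stood at least 1.09-fold above it (adjusted p = 0.0452 by limma). The scaffold gene Shank3 read 29.0 and 28.5 in the hair cell layer and was undetected on 1 supporting cell layer array, while the other had an irregular spot and was left out (adjusted p = 0.0255 by limma). Both passed the filter through the hair cell layer alone, and both were named here after their values were seen. The next largest changes among genes detected on all 4 arrays were the gap junction gene Gja5 by -0.72 ± 0.15, the clotting inhibitor Tfpi by -0.59 ± 0.09 and the exchange factor Arhgef15 by -0.45 ± 0.10. These 3 no longer passed with median scaling, and the other 2 tested Gja5 probes had changes of 0.36 and -0.05, neither called. Dll4, Shank3 and F11r still passed. Of the 8 genes called on this side 3 were also called with median scaling, against 14 of the 19 called on the supporting side.

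Several well-known endothelial genes did not pass the test. The nitric oxide synthase gene Nos3, whose protein Nostrin binds, had a change of -0.10 ± 0.11. The fenestral diaphragm gene Plvap had a change of 0.24 ± 0.11, the ETS factor Fli1 of -0.30 ± 0.64, and the selectin genes Sele and Selp of -0.50 ± 1.13 and 0.35 ± 0.38, each with at least 1 array below detection, as had Fli1. Ets1 was undetected on all arrays. Icam2 was detected on 1 supporting cell layer array, while its spot on the other was irregular, and was not tested. No probe was named here for Cdh5, Eng or Mmrn1.

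**Figure D4:**
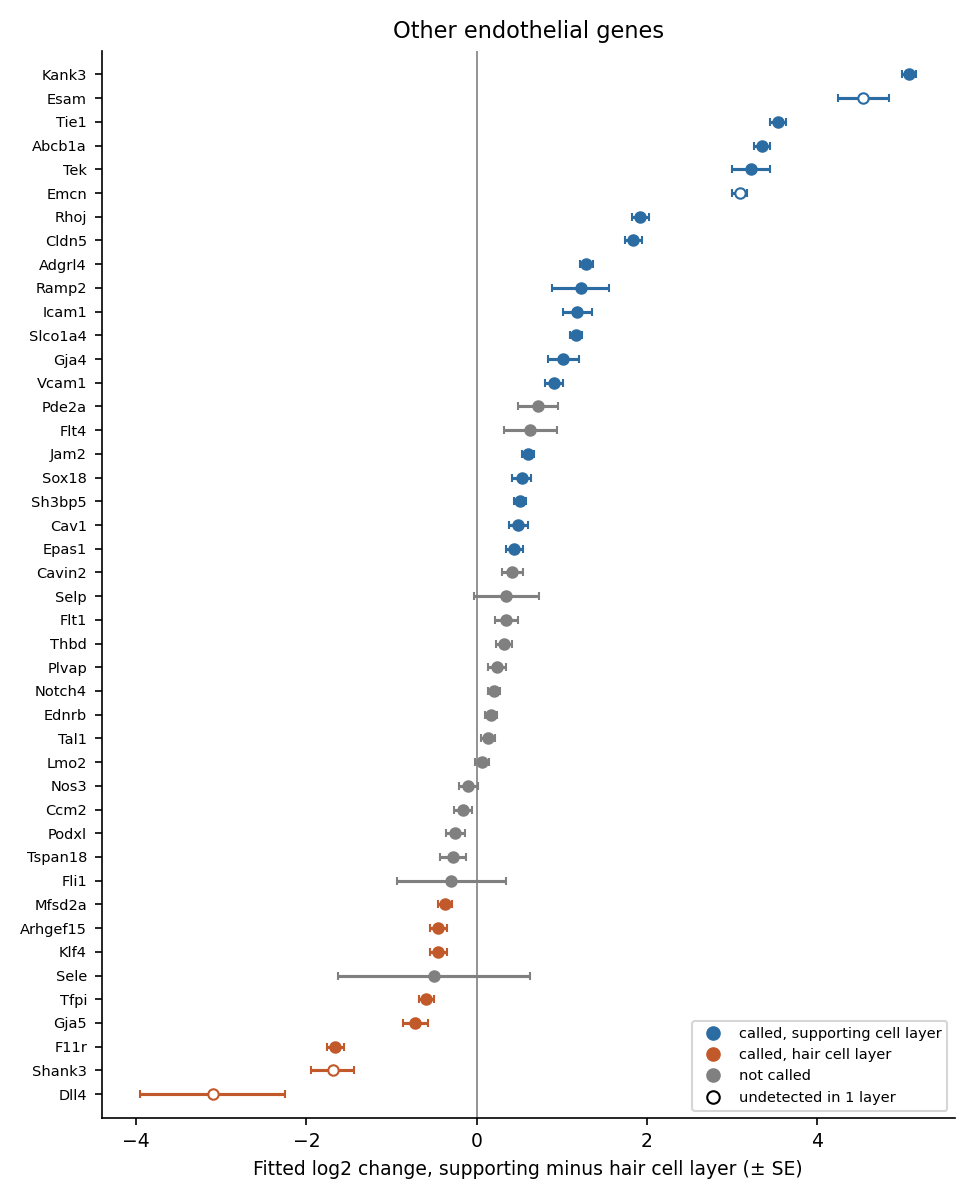
Fitted log2 change with standard error of the 44 other endothelial genes tested, supporting minus hair cell layer; blue and orange mark genes called on the supporting and the hair cell side, grey those not called, and open symbols genes undetected in 1 layer. Blue points (19) reach from 0.44 to 5.08 and orange points (8) from -3.10 to -0.37.

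Markers of other cells found around vessels were called in both directions. The shares over all tested genes were 28.2% toward the supporting side and 37.2% toward the hair cell side. In the lists below, every gene called toward the hair cell side was undetected in the supporting cell layer. Such genes passed the filter through 1 layer alone, so that their direction was fixed once they were tested. This also held for Rgs5, Abcc9, Adgre1 and Ahsp on the supporting side. Of 9 tested mural cell genes 5 (55.6%) were called toward the supporting side and 2 (22.2%) toward the hair cell side, with a summed normalized intensity of 961 and 992 in the hair cell layer against 1228 and 1270. Such sums are carried by the brightest probes of a list. The mural genes Pdgfrb, Acta2 and Tagln were undetected on all 4 arrays. For 8 tested connective tissue genes the numbers were 4 (50%) and 1 (12.5%), with sums of 1083 and 1081 against 2426 and 2489. For 12 tested genes of leukocytes and macrophages, which share Pecam1 and Cd93 with endothelium, they were 3 (25%) and 4 (33.3%). These are near the shares of all genes. The sums were 599 and 650 against 391 and 466, but Csf1r lacked a value on supporting cell layer array 1 and Cd68 on array 2. Aif1 alone gave 171 and 173 against 13.0 and -1.55, so that the difference in the sums rests largely on that gene. The pan-leukocyte gene Ptprc was undetected on all 4 arrays. Of 3 tested genes of red cells and platelets Ahsp, a haemoglobin chaperone, was called, at least 7.67-fold toward the supporting side, and the sums were 34 and 62 against 230 and 211. The platelet genes Pf4, Ppbp, Gp9 and Treml1, looked at because platelets also carry Vwf, were undetected on all 4 arrays. The part of these cells in the differences of the endothelial markers was not tested.

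**Figure D5:**
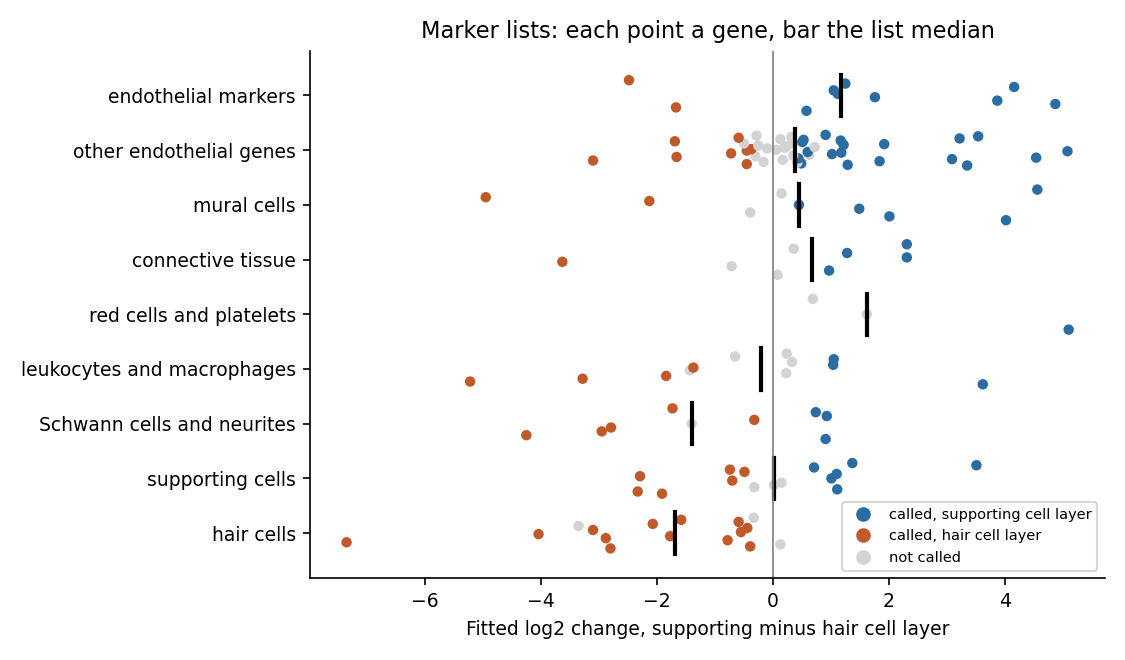
Fitted log2 change of every tested gene in each marker list, supporting minus hair cell layer, with the list median as a black bar. The medians are 1.18 for the 10 endothelial markers, 0.38 for the other endothelial genes, 0.45 for mural cells, 0.67 for connective tissue, 1.62 for red cells and platelets (3 genes), -0.21 for leukocytes and macrophages, 0.02 for supporting cells, -1.40 for Schwann cells and neurites and -1.68 for hair cells.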

How the data were processed

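Per the labels' protocols, RNA from laser-captured tissue was amplified linearly into biotin-labelled cRNA. CodeLink Expression Analysis 4.0.0.23520 read the slides, per the file headers. The deposited scanner files list a raw intensity with local background already subtracted, a version scaled to the median of the array, and a quality flag for every spot. No source used here gives a genome build.

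Gene names came from the platform annotation, which was tied to the scanner rows by the values of 3 columns of the deposited series table (35125 rows), and symbols were updated by gene identifier to GRCr8. The fourth column was shifted against its scanner file and was not used. Of 33849 gene probes 16721 were named by the platform, 192 by RefSeq accession and 10 by description. For all 10 members the platform gave the name.

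Contaminated, irregular and failed spots were left out and saturated ones kept. Raw intensities were quantile-normalized, floored at 0.1 of the median and taken to log2. Testing took in 16483 probes, those with a good or saturated flag on 2 or more arrays, and was done with limma 3.58.1 in R 4.3.3 (two-sided, no block, Benjamini-Hochberg over all tested probes, called at an adjusted p under 0.05), after a test on simulated data. A gene's value is its brightest tested probe. A lower limit of fold sets the bright layer's mean log2 value against a value taken per array of the dim layer. That value is the higher of the probe's own and the lowest detected normalized intensity (13.9, 18.5, 26.6 and 28.3). Every such limit is approximate and holds on the quantile-normalized scale alone.

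The members and all gene lists were chosen with earlier results of these data known. A rule named genes beyond the members: fixed well-known endothelial genes, and the 4 largest called changes per direction detected on all arrays. From each marker list it took the brightest gene and the largest called gene in each direction. Some other genes were named after their values were seen, and not every gene that the rule gives is named here. The number of arrays limits the precision. Alternatives covered scaling, filter, floor, trend, probe choice, a replicate block and leaving out each array; the run without scaling was added after seeing the data.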

Additional observations from a re-analysis of the deposited data

How the results depend on the processing

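Over 15 alternatives (14 for Erg, Egfl7 and S1pr1, which are not tested when detection on all 4 arrays is asked), Vwf, Ece1, Nostrin, Tm4sf1, Palmd, Erg, Egfl7 and S1pr1 kept their direction and stayed past the threshold, Pecam1 in 14 and Cd93 in 7. Cd93 turned to -0.09 without scaling. The count of endothelial markers higher in the supporting cell layer was 5 of 7 tested when detection on all 4 arrays was required, 6 without scaling, and 7 to 8 with 1 array left out; Vwf and Ece1 were called in every setting. Of all tested genes 2133 of 5782 were called toward the supporting side with detection on all 4 arrays, and 717 of 7771 without scaling. The median change of the endothelial markers was 0.50 without scaling, 1.05 with detection on all 4 arrays and 0.96 with an offset of 50. The fitted changes of Erg, Egfl7 and S1pr1 fell to between 1.10 and 2.12 with a floor at the highest detection limit or the offset, by the construction of those settings. Of the other endothelial genes 10 were higher in the supporting cell layer both without scaling and without a filter on dim probes. Those of the list higher in the hair cell layer numbered 3 with median scaling and with the scanner software's normalized intensity. Over all 7771 tested genes 2079 and 1607 were called on that side there. Of the list 16 were called on that side without scaling and 2 without a filter, beside 4645 of 7771 and 1608 of 12329 genes. The 11112 probes called became 6879 with the scanner software's values, 6654 without a filter, and 7182 to 10009 with 1 array left out. The cause was not tested. The labels do not say whether same-numbered arrays of the layers belong together. Their deviations correlated at r = -0.0282 over 11059 probes, which cannot decide it, since the noise of each array could hide a shared source. With the replicate block 7 endothelial markers were called toward the supporting side and 2 toward the hair cell side. For the other endothelial genes the numbers were 14 and 2, and over all 7771 tested genes 1602 and 2273. In either direction 8701 probes were called.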

Other observations

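Mural cells wrap vessels; beyond Notch3, Rgs5 and Myh11 the names here were taken after values were seen. On the supporting cell side were Rgs5 at least 4.33-fold, the potassium channel subunit gene Abcc9 at least 7.21-fold, Anpep by 2.01 ± 0.17, Higd1b by 1.49 ± 0.18 and Kcnj8 by 0.45 ± 0.07 on the log2 scale. Kcnj8 missed the threshold with median scaling and turned to -0.21 without scaling. On the hair cell side were the smooth muscle myosin heavy chain Myh11 at least 6.5-fold and leiomodin Lmod1 at least 2.55-fold, both undetected in the supporting cell layer. Notch3, the brightest of the list, differed by 0.15 ± 0.11, short of the threshold (adjusted p = 0.296 by limma).

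In connective tissue, Mgp (2.31 ± 0.08), Tbx18 (2.31 ± 0.07), Ogn (1.28 ± 0.20) and Col1a2 (0.97 ± 0.09) were called toward the supporting side, Ogn with 1 hair cell layer array below detection, and Fbn1 at least 1.36-fold toward the other. Among genes of leukocytes and macrophages, Adgre1 was at least 4.84-fold higher in the supporting cell layer, with Csf1r (1.05 ± 0.22, on 1 supporting cell layer array) and Cd74 (1.04 ± 0.11, below detection on 1 hair cell layer array). Toward the hair cell side stood Aif1 at least 6.26-fold, C1qa at least 1.86-fold and Cd68 at least 1.5-fold, the last on 1 supporting cell layer array, and C1qc was called on the same side without a usable limit. Cd14, the brightest of the leukocyte list, differed by 0.23 ± 0.21 and was not called, nor were Itgam, S100a9, Cd3e and Cd79b. In connective tissue Col1a1, Dcn and Prrx1 were not called. Beyond Mgp, Col1a2, Fbn1, Adgre1, Aif1 and Cd14 the names from these lists were taken after values were seen. Among the other endothelial genes 5 of the 19 called toward the supporting cell layer had a negative change without scaling between the arrays. A second probe of the transcription factor Tal1, singled out after values were seen, read 7, 4.24, 78.4 and 79.2 in raw intensity (adjusted p = 0.00146 by limma). Its pattern of detection was like that of Erg. It passed the filter through the supporting cell layer alone, so that its direction was fixed once it was tested. The brighter Tal1 probe had a change of 0.13 ± 0.08 and was not called.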
